A study of Mus musculus with 12 samples.

Results

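The mitochondrial genome of the mouse carries 37 annotated genes, of which 13 had a row in the expression tables of gastrocnemius and soleus. Members were the rows whose Ensembl identifier, without its version, belongs to a gene with a symbol starting mt-. They numbered 13 among 34866 rows in each table, and each of them encodes a protein. The 2 ribosomal RNA genes and 22 transfer RNA genes were not analysed here. The 13 comprised 7 subunits of complex I (mt-Nd1, mt-Nd2, mt-Nd3, mt-Nd4, mt-Nd4l, mt-Nd5 and mt-Nd6), the cytochrome b subunit of complex III (mt-Cytb), 3 subunits of complex IV (mt-Co1, mt-Co2 and mt-Co3) and 2 subunits of complex V (mt-Atp6 and mt-Atp8).

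The series asked what PHF2, a histone demethylase-family protein with a plant homeodomain, does in skeletal muscle. Male C57BL/6 mice at 4 weeks of age gave total RNA of the gastrocnemius, in which fast fibres prevail, and of the soleus, a posture-holding muscle rich in slow fibres. Control animals (Ctrl) were Phf2 flox/flox;Acta1 Cre- and knockout animals (KO) were Phf2 flox/flox;Acta1 Cre+, so every animal carried the floxed alleles, and there were 3 libraries for each muscle and genotype, 12 in all. Acta1-Cre is active in skeletal muscle fibres, so RNA from vessels, fat, nerve and connective tissue in the same piece of muscle comes from cells in which Phf2 is not targeted. Whether the 3 libraries of a group are from separate mice is not stated, so every p-value measures only the spread between these libraries. Expression was deposited as TPM, a relative number of transcripts per unit of length that adds up to the same sum in each library. Read depth cannot be recovered from it, and a gene's TPM falls when other genes take a larger part of the sum. In a piece of muscle, fewer cells of a type and less RNA per cell cannot be told apart.

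Mitochondrial DNA is transcribed from both strands as long polycistronic RNAs, which are cut at the transfer RNAs into ribosomal RNAs, transfer RNAs and mRNAs. The mRNAs differ in abundance mainly through what happens after transcription, such as processing, polyadenylation and decay. All of the encoded proteins are core subunits of the oxidative phosphorylation complexes, and slow, oxidative muscle fibres hold more mitochondria than fast, glycolytic fibres.

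Among the 13 protein genes, neighbours overlap at 4 places, and the largest of these overlaps joins mt-Atp8 to mt-Atp6. The sequences below are shown because mt-Atp8 and mt-Atp6 moved in opposite directions in TPM in gastrocnemius. The genes share bases and, in mammals, an mRNA. Capitals mark the 43 shared bases. mt-Atp8 is printed in full, all 204 bases of chrM:7766-7969 on the plus strand (mm10). The first 90 bases of mt-Atp6 are those of chrM:7927-8016 on the plus strand.
mt-Atp8: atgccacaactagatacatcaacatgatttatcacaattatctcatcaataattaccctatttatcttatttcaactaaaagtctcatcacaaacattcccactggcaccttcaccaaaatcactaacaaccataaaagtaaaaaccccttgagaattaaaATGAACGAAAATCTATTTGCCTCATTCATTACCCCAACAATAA
mt-Atp6: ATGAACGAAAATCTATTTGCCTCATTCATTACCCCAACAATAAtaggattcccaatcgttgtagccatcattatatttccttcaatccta
The genes mt-Nd4l and mt-Nd4 are the other pair that mammals carry on a shared mRNA, and they overlap by 7 bases. The last 60 bases of mt-Nd4l (chrM:10114-10173, plus strand) and the first 60 of mt-Nd4 (chrM:10167-10226, plus strand) are shown with those 7 bases in capitals.
mt-Nd4l: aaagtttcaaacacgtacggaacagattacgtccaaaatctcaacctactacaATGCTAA
mt-Nd4: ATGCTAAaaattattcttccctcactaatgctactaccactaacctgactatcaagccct
The remaining overlaps between protein genes are 1 base between mt-Atp6 and mt-Co3 and 14 bases between mt-Nd5 and mt-Nd6. mt-Nd6 lies on the minus strand, unlike the other 12.

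Much of the mitochondrial genome has a copy in the nuclear genome, and a read from a shared stretch can be given to either. A search of the annotated transcripts found 11 nuclear genes that matched a mitochondrial mRNA at 95% identity or more over at least 100 bases. A block of 7 of them lies on chromosome 1 from 24611535 to 24616197 (minus strand, mm10) and copies mt-Co1, mt-Co2, mt-Atp6, mt-Co3, mt-Nd3, mt-Nd4l and mt-Nd4. In 5 of the 7 the aligned stretch was identical to the mitochondrial gene. The other 2 differed from it by 1 base each within the aligned stretch, shown here in capitals because within that stretch no other base tells the copy from the mitochondrial gene. The sequences are cut to the aligned stretch. Positions are counted from 1 at the 5′ end of the mitochondrial gene. Gm28438, a copy of mt-Nd3, carries T3C, and Gm29216, a copy of the last 483 bases of mt-Co1, carries A1066T. The stretch of mt-Nd3 is chrM:9459-9491 (plus strand) and that of Gm28438 is chr1:24613087-24613119 (minus strand). The stretch of mt-Co1 is chrM:6390-6423 (plus strand) and that of Gm29216 is chr1:24616155-24616188 (minus strand).
mt-Nd3: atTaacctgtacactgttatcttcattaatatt
Gm28438: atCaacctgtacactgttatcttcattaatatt
mt-Co1: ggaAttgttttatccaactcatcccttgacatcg
Gm29216: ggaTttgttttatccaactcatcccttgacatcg

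The libraries themselves differed in ways that touch these genes. Phf2 was at 9.996, 11.4 and 8.24 TPM in gastrocnemius Ctrl 1 to 3 and at 6.74, 7.61 and 7.003 TPM in KO 1 to 3. In soleus it was at 14.03, 10.002 and 14.98 TPM in Ctrl and 8.11, 9.06 and 6.79 TPM in KO. The genotypes did not overlap in either muscle, while the limma test gave adjusted p = 0.0601 in gastrocnemius and 0.326 in soleus. Fibre markers (11 genes such as Acta1 and Ckm) summed to between 123615 and 133514 TPM in the 6 gastrocnemius libraries and to between 84433 and 96063 TPM in 5 soleus libraries. Soleus KO 3 stood apart at 61062 TPM, and in it each of the 13 mitochondrial genes was higher than in any of the other 11 libraries. Processed pseudogenes listed above 0 numbered 1018 to 1160 in gastrocnemius Ctrl and 1539 to 1781 in gastrocnemius KO. The soleus ranges were 1068 to 1726 in Ctrl and 1320 to 1782 in KO.

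Mitochondrial mRNAs were among the most abundant transcripts in both muscles. The 13 genes made up 23.6%, 24.1% and 22.01% of TPM in gastrocnemius Ctrl 1 to 3, or 23.3 ± 1.11% (mean ± SD, n = 3 libraries here and below). In gastrocnemius KO 1 to 3 the share was 18.1%, 20.7% and 20.3%, or 19.7 ± 1.39%. All 3 KO libraries were below all 3 Ctrl libraries, by 3.56 percentage points on average (exact two-sided permutation p = 0.1, the smallest that 3 against 3 allows). Soleus Ctrl 1 to 3 held 29.6%, 27.1% and 24.5%, or 27.1 ± 2.55%, and soleus KO 1 to 3 held 26.1%, 28.3% and 39.0%, or 31.1 ± 6.93%. The soleus groups overlapped, and the mean was 4.06 percentage points higher in KO (exact permutation p = 0.5). Without KO 3 that difference was 0.113 percentage points. Between the control muscles, soleus was 3.83 percentage points above gastrocnemius, with no overlap (exact permutation p = 0.1, the smallest possible).

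The share depends on the scale on which it is taken. TPM counts transcripts, and weighting each gene by its length gives an approximation of the share of reads. On that scale the 13 genes made up 10.4 ± 0.421% in gastrocnemius Ctrl, 8.75 ± 0.674% in gastrocnemius KO, 12.5 ± 1.31% in soleus Ctrl and 14.6 ± 3.63% in soleus KO. Weighted so, gastrocnemius KO again lay below Ctrl without overlap, and the soleus groups overlapped. Against the summed TPM of nuclear protein-coding genes in place of all rows, the 13 genes stood at 32.0 ± 1.95%, 25.7 ± 2.27%, 39.9 ± 5.22% and 50.5 ± 18.5% in the same order, again without overlap in gastrocnemius and with overlap in soleus. Adding the 11 nuclear copies brought the TPM share to 26.1 ± 1.07%, 21.8 ± 1.51%, 30.6 ± 2.74% and 35.0 ± 8.13% in the same order.

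**Figure D1:**
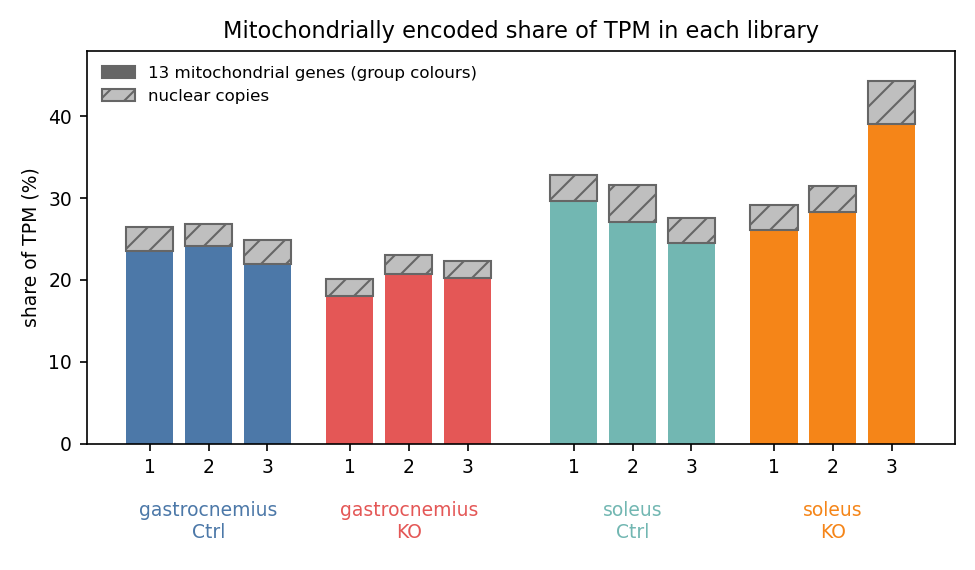
Share of TPM (percent, vertical axis) in each of 12 libraries, numbered within the 4 groups. Coloured bars are the 13 mitochondrial genes and hatched bars are nuclear copies of them. Gastrocnemius KO lies between 18.1% and 20.7%, below gastrocnemius Ctrl at 22.01% to 24.1%, and soleus KO 3 reaches 39.0%.

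The 13 mRNAs spanned a wide range of levels, and their order was similar in the muscles. In gastrocnemius Ctrl the 3 complex IV subunits and mt-Atp6 of complex V led. mt-Co2 was at 37253 ± 1801 TPM, mt-Co3 at 32742 ± 810 TPM, mt-Co1 at 31338 ± 3219 TPM and mt-Atp6 at 30832 ± 1023 TPM, and the values of mt-Co1 overlapped those of mt-Co3 and mt-Atp6. Below them came mt-Nd3 (19791 ± 924 TPM), mt-Cytb (17008 ± 509 TPM) and mt-Nd1 (15440 ± 398 TPM), with groups of values that did not overlap. mt-Nd4 (13094 ± 529 TPM) and mt-Nd4l (12854 ± 2572 TPM) could not be separated. mt-Nd2 followed at 9582 ± 476 TPM, then mt-Nd6 at 5870 ± 55.7 TPM and mt-Nd5 at 4491 ± 442 TPM. mt-Atp8 was lowest, at 2241 ± 666 TPM.

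In soleus Ctrl, mt-Co2 (45488 ± 4040 TPM) and mt-Co1 (44066 ± 3524 TPM) were within their spread of each other at the top. mt-Co3 (35140 ± 3206 TPM) and mt-Atp6 (32517 ± 2477 TPM) came next and also overlapped. mt-Cytb followed at 21819 ± 2556 TPM and mt-Nd1 at 17649 ± 1911 TPM. mt-Nd4l (15654 ± 1281 TPM), mt-Nd4 (15272 ± 1648 TPM) and mt-Nd3 (15154 ± 5168 TPM) were not separable, and mt-Nd3 varied most among these 3. The lowest were mt-Nd2 (10559 ± 1866 TPM), mt-Atp8 (7054 ± 5128 TPM), mt-Nd6 (5907 ± 1753 TPM) and mt-Nd5 (4541 ± 1330 TPM). mt-Co2 ranked first or second of all genes in every library. Between 6 and 9 of the 20 most abundant genes were mitochondrial in a gastrocnemius library, and between 10 and 13 in a soleus library.

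**Figure D2:**
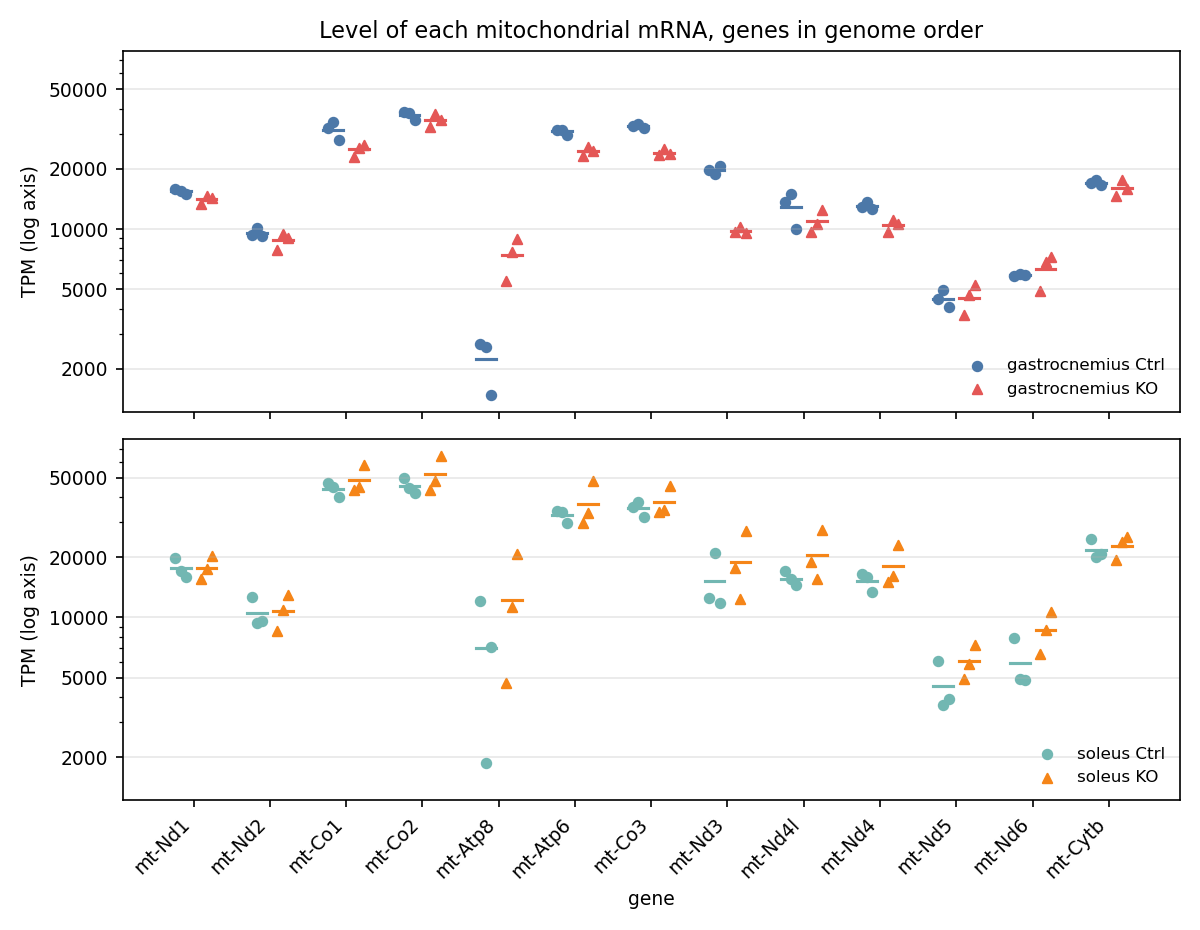
TPM (log axis) of the 13 mitochondrial mRNAs in genome order, gastrocnemius above and soleus below. Circles are Ctrl libraries, triangles are KO libraries and short lines are group means. In gastrocnemius mt-Atp8 is higher and mt-Nd3 lower in each KO library than in each Ctrl library, and in soleus the Ctrl and KO values of all 13 genes overlap.

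In gastrocnemius, KO was compared with Ctrl to ask which mitochondrial mRNAs differ when Phf2 is deleted in fibres. By limma on log2(TPM + 1), mt-Atp8 rose, mt-Nd3, mt-Co3, mt-Atp6 and mt-Nd4 fell, and the other 8 did not pass an adjusted p of 0.05. The count of 5 of 13 stands against 14.3% called among the 11911 genes tested (9.32% higher and 4.99% lower). The median log2 difference of the 13 was -0.14, where that of all genes tested was 0.03. The groups did not overlap for 1 gene that was higher (mt-Atp8) and for 6 that were lower. Over all genes tested this was so for 37.7%, of which 22.2% were higher and 15.5% lower.

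mt-Atp8 encodes a small membrane subunit of the ATP synthase. It was at 2667, 2584 and 1473 TPM in Ctrl 1 to 3 and at 5513, 7710 and 8912 TPM in KO 1 to 3. Its TPM was higher in every KO library than in any Ctrl library, and the KO mean was 329% of the Ctrl mean. The log2 difference was 1.74 (SE 0.264, limma adjusted p = 0.0102).

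mt-Nd3 encodes a core membrane subunit of complex I. It was at 19713, 18907 and 20751 TPM in Ctrl and at 9636, 10281 and 9511 TPM in KO. The groups lay far apart relative to their spread, with a KO mean at 49.6% of Ctrl. The log2 difference was -1.01 (SE 0.0665, limma adjusted p = 0.00106), the smallest adjusted p of the 13.

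mt-Co3, a core subunit of cytochrome c oxidase, was at 32838, 33501 and 31889 TPM in Ctrl and at 23435, 25248 and 23604 TPM in KO. All KO values were lower, and it fell to 73.6% of Ctrl (log2 difference -0.44, SE 0.0632, limma adjusted p = 0.00897). mt-Atp6, the proton-channel subunit of the ATP synthase, was at 31383, 31462 and 29652 TPM in Ctrl and at 23315, 25761 and 24478 TPM in KO. It too was lower in each KO library and fell to 79.5% of Ctrl (-0.33, SE 0.0671, limma adjusted p = 0.0222). mt-Nd4, a proton-pumping subunit of complex I, was at 12954, 13679 and 12649 TPM in Ctrl and at 9679, 11127 and 10597 TPM in KO. It fell to 79.9% of Ctrl without overlap (-0.32, SE 0.0737, limma adjusted p = 0.0308).

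The 5 calls did not pass equally often in other fits. mt-Atp8, mt-Nd3 and mt-Co3 passed whichever library was left out, whereas mt-Atp6 passed in 2 and mt-Nd4 in 1 of the 6 fits without a library. In those 6 fits 4.61% to 13.4% of all genes tested were called, beside 14.3% with no library left out. The log2 differences there ran from -0.37 to -0.30 for mt-Atp6 and from -0.37 to -0.27 for mt-Nd4. When the spread was estimated from all 12 libraries, none of the 13 passed, and 4.33% of all 12091 genes tested did. In that fit 4 members had an unadjusted p under 0.05. The limma adjusted p was 0.0560 for mt-Nd3, 0.0907 for mt-Co3 and 0.140 for mt-Atp8.

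Among the genes without a call, mt-Co1, the catalytic subunit of cytochrome c oxidase, had the smallest adjusted p. It was at 32062, 34133 and 27819 TPM in Ctrl and at 23036, 25550 and 26412 TPM in KO, with each KO value below each Ctrl value (-0.32, SE 0.0967, limma adjusted p = 0.0664). It passed without Ctrl 3, with a filter at a mean of 5 TPM (adjusted p = 0.0450) and with its nuclear copies added (adjusted p = 0.0245). mt-Nd1, which builds the quinone-binding arm of complex I, averaged 15439.6 TPM in Ctrl against 14067 TPM in KO, with no overlap (-0.14, limma adjusted p = 0.194). The Ctrl and KO values of mt-Nd2, mt-Co2, mt-Cytb, mt-Nd4l, mt-Nd5 and mt-Nd6 overlapped, with log2 differences from -0.22 for mt-Nd4l to 0.09 for mt-Nd6. The differences of mt-Nd1, mt-Nd2, mt-Co2, mt-Cytb and mt-Nd4l turned positive when each library was scaled to its own mitochondrial sum.

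**Figure D3:**
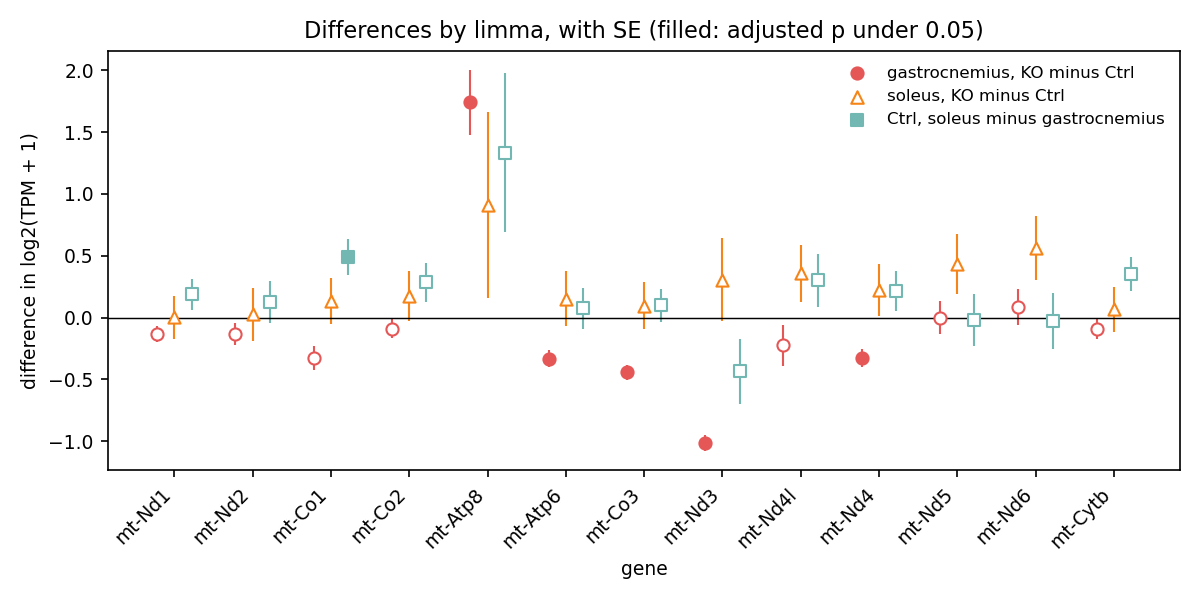
Difference in log2(TPM + 1), with SE from limma, for each mitochondrial mRNA in 3 comparisons. Filled symbols passed an adjusted p of 0.05 and open symbols did not. Gastrocnemius has 5 filled symbols, from 1.74 for mt-Atp8 to -1.01 for mt-Nd3, soleus KO minus Ctrl has none, and soleus minus gastrocnemius in Ctrl has mt-Co1 at 0.49.

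Within the mitochondrial sum, which takes out the overall share, the composition of the gastrocnemius pool differed between genotypes. mt-Nd3 made up 8.35%, 7.83% and 9.43% of the sum in the Ctrl libraries and 5.32%, 4.97% and 4.69% in the KO libraries. mt-Atp8 made up 1.13%, 1.07% and 0.669% in Ctrl and 3.05%, 3.73% and 4.397% in KO. The groups did not overlap for either gene. On this scale 6 of 13 genes were higher and 4 lower in KO without overlap, beside 48.3% of all genes tested in either direction. Only mt-Atp8 and mt-Nd3 passed in limma on values scaled this way, out of the 13, beside 28.5% of all genes tested.

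By complex, the 7 complex I mRNAs made up 34.9 ± 0.310% of the sum in gastrocnemius Ctrl and 32.9 ± 0.665% in KO, with no overlap. Without mt-Nd3, the other 6 complex I mRNAs made up 26.4 ± 0.576% in Ctrl and 27.9 ± 0.962% in KO, higher without overlap, so the lower complex I share was that of mt-Nd3. The 2 complex V mRNAs made up 14.2 ± 0.178% and 16.2 ± 0.276%, also without overlap. Of these, mt-Atp6 alone went from 13.3 ± 0.224% to 12.5 ± 0.401%, lower without overlap, so the higher complex V share was that of mt-Atp8. mt-Cytb of complex III made up 7.32 ± 0.164% and 8.12 ± 0.322%. The 3 complex IV mRNAs, at 43.6 ± 0.398% and 42.8 ± 0.802%, overlapped between the genotypes.

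The overlapping pair mt-Atp8 and mt-Atp6 differed in TPM ratio between the genotypes in gastrocnemius. mt-Atp8 has 204 bases and mt-Atp6 has 681, of which 43 are shared. TPM is per length, and how reads were shared between these genes is not given in the sources used here. Whether this ratio follows transcript amounts, or the short length of mt-Atp8 and the assignment of reads, was not tested. mt-Atp8 was at 8.50%, 8.21% and 4.97% of the TPM of mt-Atp6 in gastrocnemius Ctrl 1 to 3 and at 23.6%, 29.9% and 36.4% in KO 1 to 3. Every KO ratio exceeded every Ctrl ratio, with a difference of 2.07 on the log2 scale (exact permutation p = 0.1, the smallest possible). In soleus it was at 35.5%, 5.59% and 24.1% in Ctrl and at 15.8%, 33.9% and 43.1% in KO. These soleus groups overlapped (log2 difference 0.76, exact permutation p = 0.6), and without Ctrl 2 the difference was -0.04. The second pair kept a ratio near equality. mt-Nd4l was at 78.8% to 109% of mt-Nd4 in gastrocnemius Ctrl, 95.2% to 118% in gastrocnemius KO, 97.4% to 108% in soleus Ctrl and 95.7% to 127% in soleus KO. Its genotype difference was 0.10 on the log2 scale in gastrocnemius (exact permutation p = 0.7), or -0.05 without Ctrl 3, and 0.14 in soleus (exact permutation p = 0.4). The pair on opposite strands, mt-Nd6 and mt-Nd5, had ratios between 120% and 147% over all 12 libraries.

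In soleus, none of the 13 genes passed in KO against Ctrl, and the Ctrl and KO values of each overlapped. Only 9 of 12148 genes passed in this comparison (0.0741%, of which 0.0165% higher and 0.0576% lower). Groups that did not overlap were found for 16.8% of the genes tested, 8.9% higher and 7.94% lower. No member had an unadjusted p under 0.05 in limma, and the smallest adjusted p was 0.583, for mt-Nd6. All 13 estimates were above 0, with a median of 0.17 beside -0.02 for all genes. Without KO 3 their median was 0.0078.

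mt-Nd6 encodes a complex I subunit from the minus strand. It was at 7931, 4944 and 4848 TPM in soleus Ctrl and at 6602, 8657 and 10666 TPM in KO. Ctrl 1 lay among the KO libraries, and the log2 difference was 0.56 (SE 0.260, limma adjusted p = 0.583). mt-Nd3 was at 12529, 21107 and 11827 TPM in Ctrl and at 17644, 12434 and 27061 TPM in KO. Ctrl 2 was the high library of its group and KO 2 the low one of its own, so the values interleave (0.31, SE 0.336, limma adjusted p = 0.789). mt-Atp8 was at 12135, 1881 and 7147 TPM in Ctrl and at 4679, 11224 and 20724 TPM in KO. Its highest soleus value was a larger multiple of its lowest than for any other member (log2 difference 0.91, SE 0.751, limma adjusted p = 0.733).

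The remaining members were closer together in soleus. mt-Co1 was at 47058, 44958 and 40182 TPM in Ctrl and at 43284, 45079 and 57741 TPM in KO. KO 1 and KO 2 lay within the range of Ctrl and KO 3 above it, a pattern shared by mt-Co2, mt-Nd1 and mt-Cytb except that mt-Nd1 and mt-Cytb of KO 1 lay below it. The log2 differences of these 4 were 0.14, 0.17, 0.0013 and 0.07. Of the share of the mitochondrial sum, mt-Nd1 was the only member whose soleus groups did not overlap, at 6.51 ± 0.164% in Ctrl and 5.75 ± 0.513% in KO, beside 8.41% of all genes tested on that scale.

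The KO difference of soleus was then compared with that of gastrocnemius in a fit of all 12 libraries. None of the 13 members passed, beside 0.273% of 12091 genes (0.157% higher and 0.116% lower), and 4 had an unadjusted p under 0.05 in limma. mt-Nd3 had the largest estimate, at 1.32 (SE 0.377, adjusted p = 0.120), and it passed without soleus KO 2 (adjusted p = 0.0437). The other 3 of those 4 were mt-Nd4 at 0.55 (adjusted p = 0.210), mt-Co3 at 0.54 (adjusted p = 0.173) and mt-Co1 at 0.46 (adjusted p = 0.236). The remaining 9 lay between -0.83 for mt-Atp8 and 0.59 for mt-Nd4l. The gastrocnemius calls are therefore not shown to be particular to that muscle.

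Control soleus was compared with control gastrocnemius to ask how the mitochondrial mRNAs differ between a slow and a fast muscle. mt-Co1 was higher in soleus (log2 difference 0.49, SE 0.145, limma adjusted p = 0.0183), and the other 12 did not pass. That is 1 of 13, beside 40.8% of 12091 genes (30.4% higher and 10.4% lower). The groups did not overlap for 4 genes, all higher in soleus (mt-Nd1, mt-Co1, mt-Co2 and mt-Cytb), beside 54.1% of all genes (39.8% higher in soleus and 14.4% lower). mt-Cytb missed the threshold (0.35, SE 0.137, limma adjusted p = 0.0589). The median of the 13 was 0.19, and that of all genes tested was also 0.19, while the members ranged from -0.44 for mt-Nd3 to 1.33 for mt-Atp8. With median-ratio scaling mt-Co1 no longer passed.

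In composition, soleus Ctrl held more complex IV mRNA than gastrocnemius Ctrl, at 46.1 ± 1.196% against 43.6 ± 0.398% of the mitochondrial sum, and less complex I mRNA, at 31.3 ± 1.09% against 34.9 ± 0.310%. Neither pair of groups overlapped. How many of all genes were without overlap on this scale was not counted for the control muscles. Without mt-Nd3, the other 6 complex I mRNAs made up 25.6 ± 1.23% in soleus Ctrl and 26.4 ± 0.576% in gastrocnemius Ctrl, with overlap. mt-Co1 made up 16.3 ± 0.365% of the sum in soleus Ctrl and 13.5 ± 0.756% in gastrocnemius Ctrl, and mt-Nd3 made up 5.61 ± 1.91% and 8.54 ± 0.815%.

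As a set, libraries with more processed pseudogenes listed above 0 TPM had a lower share of mt-Nd3. Apart from soleus KO 3, they had a higher share of mt-Atp8. The number of these pseudogenes is given beside both. It was looked at with the values known, so it is a description with no test. In gastrocnemius it was higher, and mt-Nd3 lower, in each KO library than in any Ctrl library. In soleus it was 1726, 1068 and 1577 in Ctrl, where mt-Nd3 made up 4.23%, 7.79% and 4.82% of the mitochondrial sum. In soleus KO it was 1320, 1782 and 1436, and mt-Nd3 made up 6.76%, 4.40% and 6.93%. Over all 12 libraries, those with 1018 to 1436 such pseudogenes had mt-Nd3 at 6.76% to 9.43% of the sum and those with 1539 to 1782 had it at 4.23% to 5.32%. Within a set this order was not kept, as gastrocnemius Ctrl 3 (1160) was at 9.43% and Ctrl 2 (1018) at 7.83%. The number of all genes listed above 0 TPM split the libraries in the same way. It was 18291 to 19480 in the first set and 19658 to 20175 in the second. The share of mt-Atp8 in soleus was 4.10%, 0.694% and 2.91% in Ctrl and 1.79%, 3.97% and 5.31% in KO, with its highest value in KO 3. Over both muscles, libraries with 1018 to 1320 pseudogenes had mt-Atp8 at 0.669% to 1.79% of the sum. Those with 1539 to 1782 had it at 2.91% to 4.40%, and soleus KO 3, with 1436, departed from this order. In gastrocnemius the number of pseudogenes, the number of all genes listed and the genotype coincide. They cannot be told apart for mt-Nd3 or mt-Atp8.

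**Figure D4:**
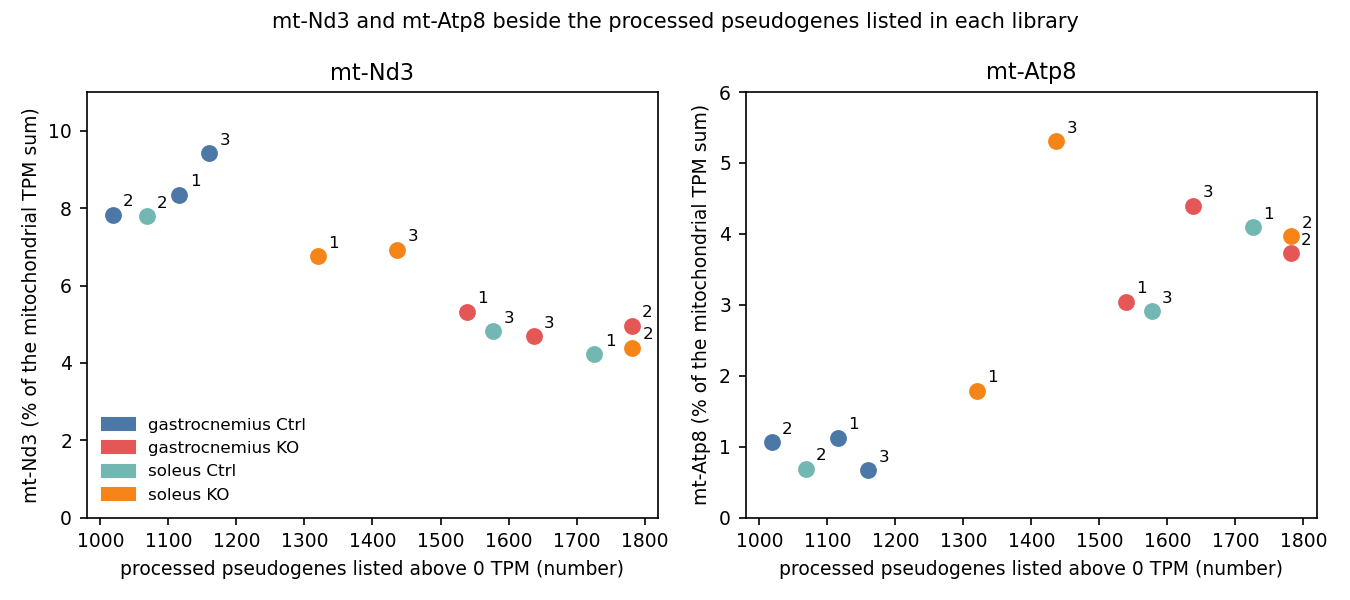
mt-Nd3 (left) and mt-Atp8 (right) as a percent of the mitochondrial TPM sum, against the number of processed pseudogenes listed above 0 TPM, in the 12 libraries labelled by replicate number and coloured by group. Libraries with 1539 to 1782 pseudogenes, the 3 of gastrocnemius KO among them, have mt-Nd3 at 4.23% to 5.32%, and those with 1018 to 1436 have it at 6.76% to 9.43%. mt-Atp8 is at 2.91% to 4.40% with 1539 to 1782 and at 0.669% to 1.79% with 1018 to 1320, while soleus KO 3 (1436) is at 5.31%.

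A nuclear copy of mt-Co1 was listed at a level near that of mt-Co1 itself. Gm29216, the copy of the end of mt-Co1, was listed at 28685, 27222 and 28472 TPM in gastrocnemius Ctrl and at 20591, 23804 and 20075 TPM in KO. In soleus it was at 31847, 44649 and 30223 TPM in Ctrl and at 30936, 31851 and 52398 TPM in KO. It thus stood at 67.7% to 102% of the TPM of mt-Co1, and it fell in gastrocnemius KO (-0.39, SE 0.0816, limma adjusted p = 0.0237). TPM is per length, so the copy's 492 bases account for fewer reads than the 1545 bases of mt-Co1 at the same TPM. The 5 copies with an identical aligned stretch were at 0 in every library, apart from traces of Gm10925 of at most 0.000599 TPM. Gm28438 was at 0 except at 8.56 TPM in gastrocnemius KO 2 and 15.4 TPM in soleus Ctrl 1. Of the 4 copies elsewhere, Gm13340 (mt-Co1) and Gm13341 (mt-Co2) on chromosome 2 reached 4.04 and 3.72 TPM at most, and neither was called where tested.

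**Figure D5:**
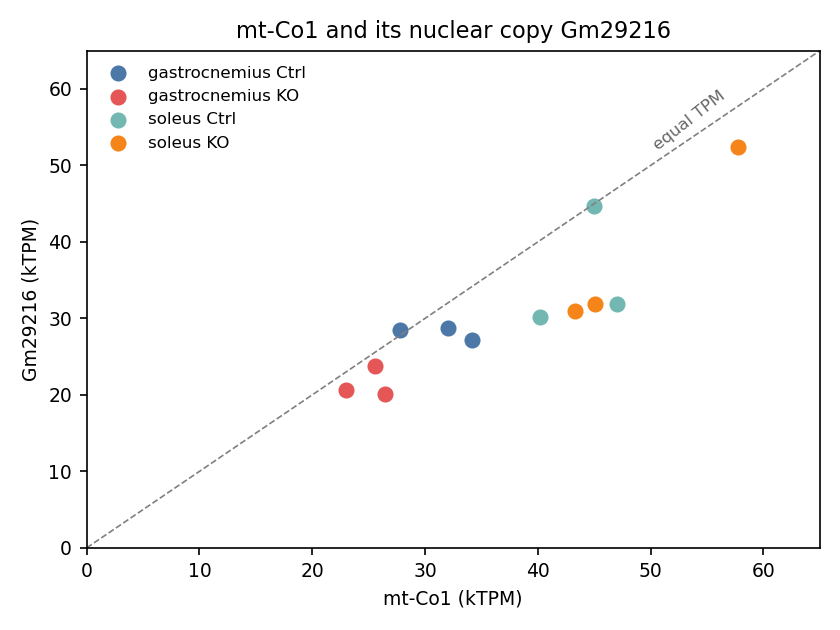
TPM of Gm29216 against that of mt-Co1, both axes in kTPM, in the 12 libraries coloured by group. The dashed line marks equal TPM. The copy stands at 67.7% to 102% of mt-Co1, and the gastrocnemius KO libraries are lowest on both axes.

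The gastrocnemius KO values were also set out by whether a member has a copy in the chromosome 1 block. Of the 7 with a copy, 4 fell and 3 were not called, beside 4.99% of all genes tested that fell. Their median was -0.32, with values from -1.01 for mt-Nd3 to -0.09 for mt-Co2. Of the 6 without one, mt-Atp8 rose and 5 were not called (median -0.05, from -0.14 to 1.74). The values of the 2 sets overlapped, and the difference between them was not tested. How the authors shared reads between these sequences is not given in the sources used here, and its part in these values was not tested.

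Proteins that read, process and protect mitochondrial RNA are encoded in the nucleus. A list of 65 such genes and their regulators was counted, of which 62 were tested in each comparison. In gastrocnemius KO 2 of them rose, 6 fell and the remaining 54 were not called (median -0.01). Over all genes tested in that comparison 9.32% rose and 4.99% fell, so the share of the list that was called, in both directions together, was close to the 14.3% over all genes. Tfb2m, a transcription initiation factor of mitochondrial DNA, fell from 34.3 ± 0.801 to 25.0 ± 0.415 TPM (-0.44, SE 0.0598, limma adjusted p = 0.00786). Mterf2 and Mterf3, of the mitochondrial transcription termination factor family, fell by 0.50 and 0.40 on the log2 scale. Lrpprc, which stabilises mitochondrial mRNAs, fell from 30.4 ± 2.20 to 23.5 ± 0.437 TPM (-0.35, SE 0.0738, limma adjusted p = 0.0238). Fastkd1 and Ptcd2, RNA-binding proteins of the mitochondrial matrix, fell by 0.39 and 0.38. Mtif3, a translation initiation factor, rose from 14.2 ± 1.34 to 19.3 ± 0.732 TPM, and Esrra, a nuclear receptor that drives oxidative metabolism genes, rose from 49.6 ± 5.39 to 64.8 ± 5.50 TPM.

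Tfam, which packages and transcribes mitochondrial DNA, had 35.7 ± 5.46 TPM in gastrocnemius Ctrl against 41.6 ± 7.35 TPM in KO (limma adjusted p = 0.392). Polrmt, the mitochondrial RNA polymerase, was at 18.7 ± 4.13 and 14.1 ± 3.11 TPM (adjusted p = 0.226). Ppargc1a, a coactivator of mitochondrial biogenesis, was at 11.3 ± 2.11 and 8.40 ± 4.07 TPM (adjusted p = 0.317). None of these 3 passed. In soleus KO 0 of 62 passed in limma, beside 0.0741% of all genes tested, and 4 had an unadjusted p under 0.05. The smallest adjusted p was 0.258 for Esrrg, an oestrogen-related receptor, with 14.2 ± 2.27 TPM in Ctrl against 25.5 ± 5.35 TPM in KO. The next were Primpol, a primase of mitochondrial DNA (adjusted p = 0.274), Mterf2 (0.417) and Tbrg4, a mitochondrial RNA-binding protein (0.539). Between the control muscles 17 of 62 were higher and 3 lower in soleus, a smaller share than the 30.4% higher and 10.4% lower over all genes tested. Ppargc1a was at 71.0 ± 50.1 TPM in soleus Ctrl (2.31, SE 0.454, limma adjusted p = 0.00201) and Supv3l1, an RNA helicase of mitochondrial RNA decay, at 18.5 ± 0.734 TPM against 10.9 ± 0.135 TPM.

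Nuclear-encoded subunits of the same complexes were counted in the same way. Of 50 tested in gastrocnemius KO, 10 rose, 11 fell and the remaining 29 were not called (median 0.04), beside 9.32% that rose and 4.99% that fell among all genes tested. Cox6a2, the muscle isoform of a complex IV subunit, rose from 1011 ± 127 to 1927 ± 72.4 TPM (0.94, SE 0.0939, limma adjusted p = 0.00412). Atp5k and Ndufb10, subunits of the ATP synthase and of complex I, rose by 0.73 and 0.53, Cox8a of complex IV by 0.69 and Atp5g3 of the ATP synthase by 0.32. Ndufb5, Cox6c and Uqcrfs1, subunits of complexes I, IV and III, fell by 0.38, 0.35 and 0.29 on the log2 scale. In soleus KO 0 of 50 passed in limma, beside 0.0741% of all genes tested, and 0 had an unadjusted p under 0.05. Cox6a2 was the only member of either list with a difference between the muscles' KO effects that passed (-1.26, SE 0.213, limma adjusted p = 0.0434). Of all genes tested 0.273% passed in that comparison of the muscles. In control soleus 42 of 50 were higher than in control gastrocnemius and none lower, with a median of 0.53. Over all genes tested 30.4% were higher and 10.4% lower, with a median of 0.19. Cox8a was at 215 ± 8.69 TPM there against 73.8 ± 6.68 TPM.

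Markers of other cell types were set beside the gastrocnemius calls. Of the 11 fibre markers 1 was called higher in KO, beside 9.32% of all genes tested. The 7 adipocyte markers summed to 269 to 298 TPM in Ctrl and 367 to 454 TPM in KO, and 1 of the 4 tested was called higher. Among all genes tested 22.2% were higher in KO without overlap. Lep and Ucp1 were under 1 TPM on average. Of 29 tested markers of endothelium, fibroblasts, tendon, leukocytes, erythroid cells and Schwann cells, 0 were called by limma in either muscle's KO comparison. Of all genes tested 14.3% were called in gastrocnemius and 0.0741% in soleus. Of the 29 markers, 2 in gastrocnemius and 4 in soleus had an unadjusted p under 0.05 in limma. For each cell type of these 29 markers the summed TPM overlapped between gastrocnemius Ctrl and KO. The part of other cell types in the mitochondrial values was not tested. Nor was that of the number of processed pseudogenes or of all genes listed above 0 TPM.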

How the data were processed

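RNA of 12 muscle libraries was measured by sequencing. The authors deposited TPM, with a separate table per muscle. Per the labels' protocols, extraction used RNAiso and a NucleoSpin kit, and libraries were directional. The submitters' processing notes name mm10 as the build. Aligner, quantifier and annotation: not given in the sources used here. The depth per library is unknown, so no counting error can be given. How reads from mitochondrial genes and their nuclear copies were assigned sets both values.

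Of 34866 identifiers, 34652 were matched to symbols of GENCODE release M21 (GRCm38, the assembly named mm10), and 214 were not. Sequences, coordinates and overlaps are from that release, and copies were found with blastn 2.17.0. Values were fitted as log2(TPM + 1) with limma 3.58.1 (R 4.3.3) for genes averaging 1 TPM or more, with a mean-variance trend, two-sided tests and Benjamini-Hochberg adjustment over all genes tested. Calls had an adjusted p under 0.05. Such differences understate changes of low genes. Each muscle was fitted alone, and comparisons across muscles used all 12 libraries. The fitting code was tested on simulated data. Shares and ratios were compared with exact two-sided permutation tests (scipy 1.17.1).

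All protein genes of the mitochondrial genome are named, nuclear copies at a mean of 1 TPM or more, Tfam, Polrmt, Lrpprc and Ppargc1a, up to 8 called members of a list and otherwise up to 4 of smallest p. Further copies, and the numbers of processed pseudogenes and of all genes listed beside mt-Nd3 and mt-Atp8, were chosen after their values were seen. The members and lists were chosen with earlier results of these data known. No sample was left out.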

Additional observations from a re-analysis of the deposited data

Results flagged for a closer look

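The share of mt-Nd1 within the mitochondrial TPM sum moved in opposite directions in the muscles. It was 6.69%, 6.43% and 6.82% in gastrocnemius Ctrl and 7.37%, 7.07% and 7.02% in KO, with a mean higher by 0.507 percentage points and each KO library above each Ctrl library. In soleus it was 6.67%, 6.34% and 6.53% in Ctrl and 5.94%, 6.15% and 5.17% in KO, with each KO library below each Ctrl library and a mean that was lower by 0.758 percentage points (-0.758). The soleus change less the gastrocnemius change was -1.27 percentage points. Groups that did not overlap on this scale were found for 48.3% of all genes tested in gastrocnemius and for 8.41% in soleus. A share also moves with the other members of the sum. In TPM, the mt-Nd1 mean of KO was at 91.1% of Ctrl in gastrocnemius, lower without overlap, and at 100.3% in soleus, with overlap. The difference of these shares was not itself tested. In limma on values scaled to the mitochondrial sum, the corresponding difference of log2 values for mt-Nd1 was -0.29 (SE 0.185, adjusted p = 0.311).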

How the results depend on the processing

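TPM fixes no depth, so the precision of low values is unknown, and a share or TPM moves with the rest of the library. In gastrocnemius KO, 5 members were called, beside 14.3% of all genes tested. Without a filter it was 2 (4.87% of all genes), as it was with scaling to the mitochondrial sum (28.5%). With the replicate number as a block it was also 2 (6.06%). In the fit of all 12 libraries it was 0, where 4.33% of all genes were called. Leaving out a library gave 3 to 6, beside 4.61% to 13.4% of all genes. mt-Atp8 and mt-Nd3 were called in 10 of the 11 settings that kept all libraries and mt-Co3, mt-Atp6 and mt-Nd4 in 7. In soleus KO the count was 0 in each setting run, beside at most 0.811% of all genes tested. For the difference of KO effects it was 0 to 1 over the left-out libraries, beside 0.00825% to 2.55% of all genes. For control soleus against gastrocnemius 1 was called, beside 40.8% of all genes tested. The count was 0 without a filter (19.7% of all genes) and with median-ratio scaling (37.8%). It was also 0 with scaling to the mitochondrial sum (15.8%) and with nuclear copies added (40.8%). The count was 2 with a filter at 5 TPM (47.0%) and without a trend (40.6%). With a library left out it was 0 to 3 (32.5% to 47.0%).

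Whether same-numbered libraries of the muscles share a mouse is not stated, and the fits across muscles treated all 12 libraries as independent. Same-numbered deviations of Ctrl and KO correlated at -0.01, -0.16 and 0.02 in gastrocnemius and at -0.24, -0.38 and -0.18 in soleus. Between the muscles they correlated at 0.20, -0.13 and 0.0066 in Ctrl and at 0.031, -0.15 and -0.035 in KO. Deviations from means of 3 libraries cannot decide whether the numbers pair the samples. The replicate block moved the genes of all kinds called in gastrocnemius from 1704 to 722. It cannot move a share or ratio difference, because the mean of same-numbered differences equals the difference of the group means. Flipping the signs of those differences gave an exact p = 0.25 for the gastrocnemius share, the smallest that such a test allows. Taking the share over the mitochondrial protein genes alone gives no other value, since each of the 13 is one. Against nuclear protein-coding genes as denominator the share differences were -6.29 percentage points in gastrocnemius KO, 10.5 in soleus KO and 7.97 between control muscles, and weighted by length they were -1.69, 2.03 and 2.08. Chosen after seeing the data were 3 settings. With nuclear copies added by length, 6 members were called in gastrocnemius KO, beside 14.3% of all genes tested. The additional one was mt-Co1 (limma adjusted p = 0.0391 against 0.0664). Shares without mt-Atp8 and mt-Nd3 kept the direction of each difference. Shares weighted by length with copies also kept it but were smaller, at -1.86 percentage points in gastrocnemius KO, 2.13 in soleus KO and 2.27 between control muscles, against -3.56, 4.06 and 3.83.

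Direction changed for members that were not called in either setting. Each scaling divides all genes of a library by the same factor, so it shifts the log2 differences of all members by nearly the same amount. Why directions changed with a library left out was not tested. In gastrocnemius, mt-Nd5 was at -0.036 with median-ratio scaling and -0.065 with rescaling without mitochondrial genes. Scaling to the mitochondrial sum gave mt-Co2 0.15, mt-Nd1 0.11, mt-Nd4l 0.017, mt-Nd2 0.11 and mt-Cytb 0.15. In soleus KO that scaling gave mt-Co2 -0.0089, mt-Co1 -0.048, mt-Co3 -0.087, mt-Nd1 -0.18, mt-Nd2 -0.16, mt-Cytb -0.12 and mt-Atp6 -0.029. Between control muscles, median-ratio scaling gave mt-Co3 -0.11, mt-Nd1 -0.021, mt-Nd2 -0.082 and mt-Atp6 -0.13, scaling to the mitochondrial sum -0.12, -0.029, -0.090 and -0.14, and rescaling without mitochondrial genes mt-Nd6 0.045 and mt-Nd5 0.057. With a library left out, the ranges were -0.11 to 0.14 for mt-Nd5 and -0.021 to 0.26 for mt-Nd6 in gastrocnemius. In soleus they were -0.053 to 0.30 for mt-Atp6, -0.042 to 0.17 for mt-Co3, -0.013 to 0.18 for mt-Cytb, -0.098 to 0.092 for mt-Nd1 and -0.11 to 0.19 for mt-Nd2. Between control muscles they were -0.014 to 0.20 for mt-Nd2, -0.25 to 0.12 for mt-Nd5 and -0.26 to 0.093 for mt-Nd6. The log2 ratio difference of mt-Atp8 to mt-Atp6 in soleus ran from -0.037 to 1.30 and that of mt-Nd4l to mt-Nd4 in gastrocnemius from -0.048 to 0.19.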
